A study of Homo sapiens with 4 samples.

Results

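The genes described here are 32 genes of the endoplasmic reticulum (ER) folding machinery and the unfolded protein response, chosen by name. They were found as 32 of the 28482 genes in the table of deposited counts. They and the lists of other genes below were chosen with earlier results of these data known. The shares of all tested genes given beside their counts do not allow for that choice. RNA was sequenced from K562/G01 cells, a subline of the established leukemia line K562 that resists imatinib. K562 came from a chronic myeloid leukemia driven by the kinase BCR-ABL1, which imatinib inhibits. The cells of every group were infected with a lentivirus, either a scramble control or one that silences TCF7 by RNA interference. TCF7 encodes TCF1, a DNA-binding partner of beta-catenin in Wnt signalling. Each kind was left without drug or kept for 48 hours in 1 µM imatinib. The 4 groups have 1 library each: scramble and TCF7 knockdown, each without and under imatinib. How many RNAi sequences were used, and whether infection and treatment were done in separate cultures, the labels leave unstated, so p-values measure only the spread between these libraries.

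Proteins that are secreted or inserted into membranes enter the ER through the SEC61 channel and fold there with the help of chaperones such as BiP and of enzymes that form disulfide bonds. Proteins that fail to fold are carried back to the cytosol and degraded, a route called ER-associated degradation. When unfolded protein builds up, the sensors IRE1, PERK and ATF6 raise the transcription of chaperone and degradation genes and restrain translation.

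The libraries held 30634832 to 34095585 counts, and 13296 genes reached 1 CPM (the count scaled by library size) in 2 or more libraries and were tested, all 32 members among them. TCF7 itself had 10.2, 2.55, 10.8 and 3.69 CPM. Here, as in every list of 4 values below, the order is scramble, knockdown, then scramble and knockdown under imatinib. Of 10 erythroid and K562 marker genes, 0 were below 1 CPM in all libraries (summed level 3600 to 3890 CPM), while all 5 markers of B and plasma cells were below 1 CPM or not in the table. Keratin genes, LYZ and CD3D were also detected, with summed levels of 387 to 493 CPM for epithelial and stromal markers, 36.4 to 44.2 CPM for monocyte markers and 20.5 to 26.6 CPM for T cell markers. Their part in the results was not tested.

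A ratio below is the log2 ratio of normalised CPM between 2 libraries, with an exact 95% interval that covers counting error only. A gene rose or fell where edgeR's quasi-likelihood test, with knockdown and imatinib as additive terms over all 4 libraries, gave a Benjamini-Hochberg adjusted p under 0.05. This test has 1 residual degree of freedom, and its error is the disagreement between the pairs of libraries, pooled over genes.

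Per transcript length, on the authors' values headed FPKM, the general chaperones led. CALR, the lectin chaperone calreticulin, averaged 371 and ranged from 304 to 452 over the libraries, which overlapped the range of HSP90B1 (GRP94, 235 to 338). CANX, the membrane-bound lectin calnexin, followed at 200 to 218, and HSPA5 (BiP) at 123 to 167. The disulfide isomerases PDIA3, PDIA6, P4HB and PDIA4 came next, averaging 67.05 to 83.8, and neighbours among them had overlapping ranges. The degradation genes lay between 0.614 (DERL3) and 23.4 (OS9), and the sensors between 1.65 (ERN1, which encodes IRE1) and 20.2 (ATF6). The chaperones CALR, HSP90B1, CANX and HSPA5 alone made up 54.5% to 59.1% of the summed CPM of all 32 genes.

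**Figure D1:**
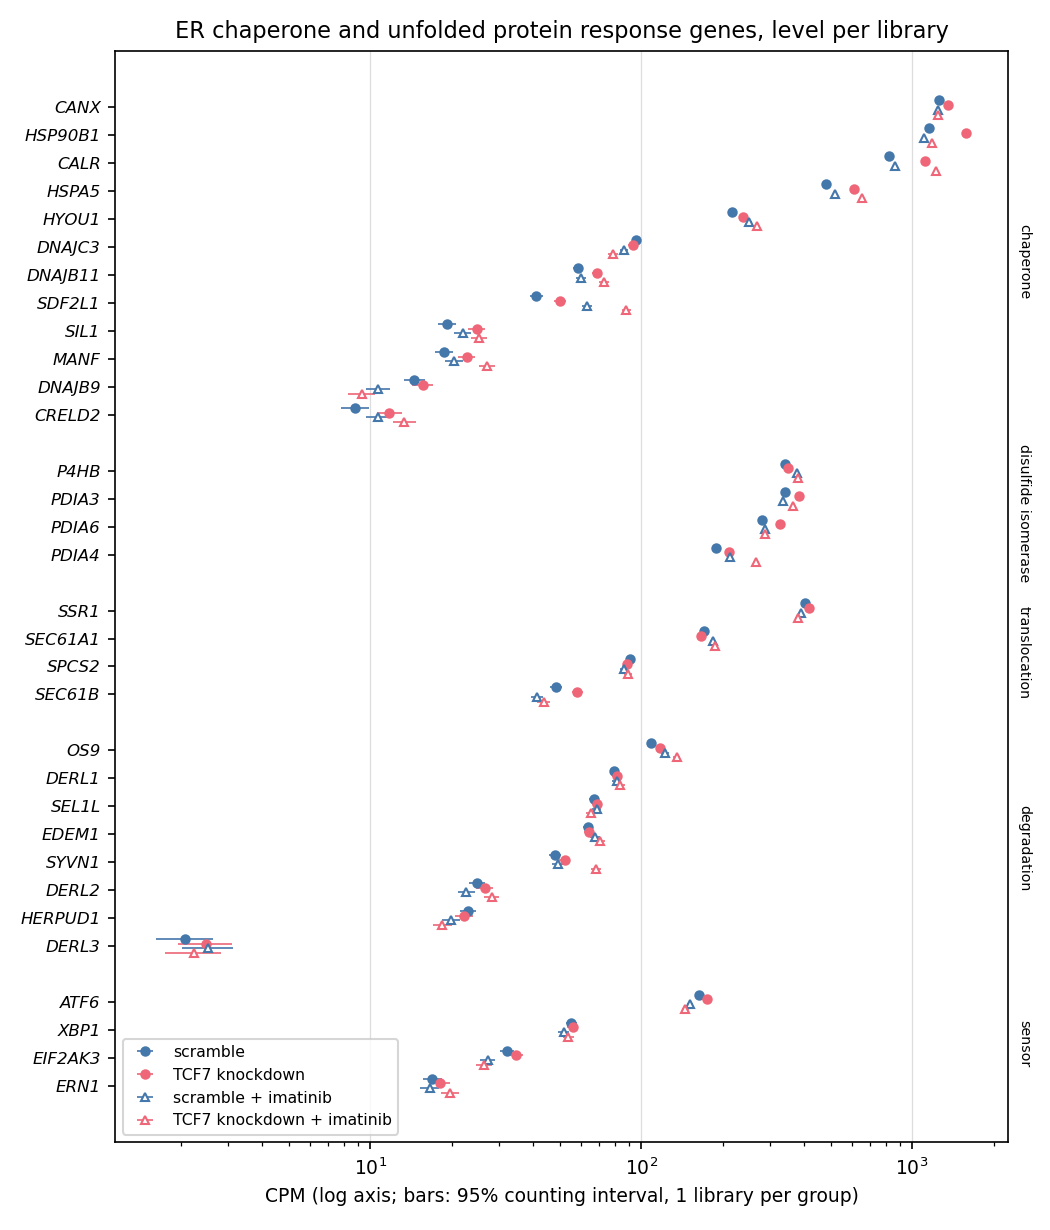
Level of each of the 32 genes in CPM (log axis) in the 4 libraries, grouped by role; filled circles are libraries without imatinib, open triangles with imatinib, blue scramble, red knockdown, and bars are 95% counting intervals. The red symbols of HSPA5, CALR and DNAJB11 lie above both blue symbols, and SDF2L1 is highest at 88.1 CPM in the knockdown library with imatinib.

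The ER stress response element (ERSE), CCAAT followed after 9 free bases by CCACG, is the sequence through which ATF6 and XBP1 are known to act on chaperone genes. RefSeq promoters (GRCh38.p14, 250 bases before to 50 after a start, both strands searched) were matched for 29 members; PDIA3, DERL1 and DERL3 were not matched. An exact ERSE was present in 7 of these 29 members, HSPA5, HSP90B1, CALR, CANX, CRELD2, PDIA6 and XBP1, against 25 of 27305 genes in the whole promoter table (0.0916%). The shorter ERSE-II, ATTGG followed after 1 free base by CCACG, was present in SDF2L1, HYOU1 and HERPUD1, against 19 of 27305 genes (0.0696%), and the element TGACGTGG (UPRE) in HYOU1, where it overlapped an ERSE-II, against 0.927% of genes. The members are known targets of this response, and a match of letters is a description of the window and no evidence of binding. The stretches shown place the matches of 9 of these 10 genes beside the ratios that follow, with the fixed letters of the motif in capitals; that of CANX is not shown.
HSPA5 (chr9:125241386-125241414, minus strand): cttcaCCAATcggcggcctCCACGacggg
HSP90B1 (chr12:103930211-103930239, plus strand): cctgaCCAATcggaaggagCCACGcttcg
HSP90B1 (chr12:103930316-103930344, plus strand): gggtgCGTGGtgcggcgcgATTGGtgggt
CALR (chr19:12938379-12938407, plus strand): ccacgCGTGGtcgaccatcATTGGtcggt
CRELD2 (chr22:49918549-49918577, plus strand): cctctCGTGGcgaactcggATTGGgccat
PDIA6 (chr2:10812848-10812876, minus strand): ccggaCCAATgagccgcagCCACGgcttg
XBP1 (chr22:28800598-28800626, minus strand): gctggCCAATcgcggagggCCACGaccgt
SDF2L1 (chr22:21642105-21642133, plus strand): cctcggaagCGTGGaCCAATcaaaaccct
HYOU1 (chr11:119057371-119057399, minus strand): gccccgtgaCGTGGtCCAATcccaggccg
HYOU1 (chr11:119057265-119057293, minus strand): ggcctgggaCGTGGtCCAATgagtacgcg
HERPUD1 (chr16:56932016-56932044, plus strand): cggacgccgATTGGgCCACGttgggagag
Each is written on the strand of its gene, so that CALR, CRELD2, SDF2L1, HYOU1 and the second HSP90B1 stretch carry the motif in reverse, and the first HYOU1 stretch is the one that overlaps the UPRE. Both HSP90B1 stretches lie within an annotated exon of the gene in GENCODE 29, and the others lie outside the exons of their genes.

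The first comparison asks how these genes differ when TCF7 is reduced, without and under imatinib. Of the 12 chaperones 5 rose with knockdown and 7 were not called, while 0 of 4 translocation genes and 0 of 4 sensors were called. Of the 32 genes 7 rose and 0 fell, where 3.8% of all tested genes rose and 3.34% fell. The 7 were the chaperones HSPA5, HSP90B1, CALR, SDF2L1 and DNAJB11, the disulfide isomerase PDIA4 and the degradation ligase SYVN1. With the GC and length correction described under imatinib, 9 members rose (PDIA3 and MANF in addition) and 0 fell, against 7.46% and 4.69% of tested genes. At an unadjusted p under 0.05 the counts were 11 higher and 0 lower, or 34.4% of members against 19.4% of all tested genes in either direction. The members' median ratio was 0.12 without and 0.09 under imatinib, against 0.00 and 0.02 over all tested genes.

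HSPA5 encodes BiP, the Hsp70 of the ER that also holds the sensors inactive (GRCh38 chromosome 9, 125234853 to 125241330). It had 479.5, 611, 518 and 653 CPM, so both knockdown libraries lay above both scramble libraries. Its ratios were 0.36 (0.33 to 0.39) without and 0.35 (0.33 to 0.38) under imatinib, 1.28-fold in each, and it rose (log2 fold change over both imatinib states 0.36, SE 0.0689, edgeR adjusted p = 0.000575).

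CALR binds glycoproteins that carry a single glucose and stores calcium (chromosome 19, 12938578 to 12944489). It had 825, 1115, 862 and 1227 CPM, again without overlap of the groups. The ratios were 0.44 (0.42 to 0.47) and 0.53 (0.51 to 0.55), or 1.36-fold and 1.44-fold, and CALR rose with the largest fold among the 32 (log2 fold change 0.49, SE 0.0699, edgeR adjusted p = 6.91e-06). CANX, its membrane-bound relative, had 1260, 1360, 1250 and 1247 CPM, and the groups overlapped. Its ratios of 0.12 (0.10 to 0.14) without imatinib and 0.01 under it, with an interval that included 0, were not called.

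HSP90B1, the Hsp90 of the ER, was high in 1 library above all (chromosome 12, 103930107 to 103953645). It had 1150, 1587, 1103 and 1185 CPM, with both knockdown values above both scramble values. The ratio was 0.47 (0.45 to 0.49) without imatinib and 0.12 (0.10 to 0.14) under it. HSP90B1 was called as risen (log2 fold change over both imatinib states 0.30, SE 0.0759, edgeR adjusted p = 0.0103), but DESeq2 gave an adjusted p of 0.853. The ratios differed by -0.35 between the imatinib states, with a counting SE of 0.014; the difference was not tested, and 10.3% of the 8819 genes that averaged 10 CPM or more differed by more.

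SDF2L1, a partner of BiP that keeps unfolded chains from aggregating, had 41.1, 50.04, 62.9 and 88.1 CPM. Its ratios for knockdown were 0.29 (0.19 to 0.40) and 0.50 (0.42 to 0.59), and it rose (log2 fold change 0.40, SE 0.0878, edgeR adjusted p = 0.00245). The groups overlapped, because scramble cells under imatinib lay above knockdown cells without it. In a fit with knockdown as the only term and the library of knockdown cells under imatinib left out, its log2 fold change was -0.03. That fit set untreated knockdown cells against scramble cells without and under imatinib, so it does not separate knockdown from imatinib. DNAJB11, a J-domain cofactor of BiP, had 58.4, 68.5, 59.9 and 72.8 CPM with no overlap, and rose (ratios 0.24 and 0.30, edgeR adjusted p = 0.0429).

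Other cofactors had ratios of similar size at lower levels and were not called. CRELD2, a disulfide isomerase-like protein, had 8.81, 11.8, 10.7 and 13.4 CPM, with ratios of 0.43 (0.20 to 0.66) and 0.34 (0.13 to 0.54). MANF, a secreted protein that binds BiP, had 18.7, 22.7, 20.4 and 26.96 CPM, with ratios of 0.29 and 0.42. SIL1, which exchanges the nucleotide on BiP, had 19.2, 24.7, 22.03 and 25.3 CPM, with ratios of 0.37 and 0.22. In all of these genes both knockdown libraries lay above both scramble libraries, and the edgeR adjusted p-values were 0.148, 0.0624 and 0.139 for CRELD2, MANF and SIL1.

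HYOU1, the large Hsp110-type chaperone, had small ratios of 0.13 and 0.11 and was not called. DNAJC3, a cofactor of BiP also known as an inhibitor of PERK, had -0.03 and -0.12, and DNAJB9, a cofactor that targets IRE1, had 0.11 and -0.18; neither was called. Of the 12 chaperones, 7 had knockdown libraries wholly above scramble libraries. Over the 32 genes such separation, taken on normalised CPM, was seen in 14 upward and 0 downward. Of tested genes, 16.4% and 15.8% were separated in these directions. Separation was slight in PDIA6, with 286.8 CPM in both imatinib libraries before normalisation. It was also slight in DERL1, with 81.21 CPM in untreated knockdown cells and 81.18 CPM in scramble cells under imatinib. The summed level of the 12 chaperones was 4187, 5196, 4258 and 4894 CPM, which is 24.1% higher with knockdown without imatinib and 14.9% higher under it. CALR, HSP90B1, CANX and HSPA5 together were 25.8% and 15.5% higher, and the other 8 chaperones together were 10.6% and 10.9% higher. CANX itself had 1260 CPM in scramble and 1360 in knockdown cells without imatinib, and 1250 and 1247 under it.

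PDIA4, a disulfide isomerase found in complexes with BiP, had 189, 211, 213 and 266 CPM. Its ratios were 0.17 (0.12 to 0.22) and 0.34 (0.29 to 0.39), and it rose (log2 fold change 0.25, SE 0.0717, edgeR adjusted p = 0.0241), although the groups overlapped. PDIA3, which works with calnexin and calreticulin, had 340.5, 384, 334 and 363.5 CPM and ratios of 0.18 and 0.14. PDIA6 had 278, 324, 287 and 287 CPM and ratios of 0.23 and 0.02, and P4HB, the most studied isomerase, had ratios of 0.05 and 0.03. None of PDIA3, PDIA6 and P4HB was called, and 25.2% of the exonic bases of PDIA6 are shared with ATP6V1C2 on the opposite strand, whose reads cannot be told apart without a stated strand setting.

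Degradation genes stayed closer to 0, with medians of 0.07 without and 0.07 under imatinib over 8 genes. SYVN1, the ubiquitin ligase HRD1 at the centre of this route, had 48.1, 52.2, 49.3 and 68.2 CPM, so that knockdown cells under imatinib stood apart from the other 3 libraries. It shares 7.24% of its exonic bases with FAU on the same strand. Its ratios were 0.13 (0.03 to 0.23) and 0.49 (0.40 to 0.58), and it rose (log2 fold change 0.31, SE 0.0935, edgeR adjusted p = 0.0363). The difference of 0.36 between the imatinib states (counting SE 0.069) was exceeded by 9.38% of genes averaging 10 CPM or more and was not tested. DERL2, a channel component of the same complex, also had its larger ratio under imatinib (0.10 and 0.33) and was not called. SEL1L, the partner that stabilises SYVN1, had 67.01, 68.9, 68.5 and 65.3 CPM and ratios of 0.05 and -0.05. The ratios of DERL1 (0.04 and 0.07), EDEM1, a mannosidase-like factor (0.01 and 0.08), OS9, a lectin (0.12 and 0.16), and HERPUD1, a scaffold of the complex (-0.04 and -0.09), were not called. DERL3 had only 69 to 86 counts per library and shares 77% of its exonic bases with SMARCB1 on the opposite strand, so that its values are uncertain.

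The translocation genes had medians of 0.02 and 0.06. SEC61B, a small subunit of the channel, had 48.6, 58.07, 41.2 and 43.7 CPM and ratios of 0.26 (0.17 to 0.36) and 0.10, the latter with an interval that included 0. SEC61A1, its pore, had -0.03 and 0.05, SPCS2 of the signal peptidase -0.03 and 0.07, and SSR1 of the translocon-associated complex 0.06 and -0.03. None was called.

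The sensor genes had small ratios, and 0 of 4 were called for knockdown (edgeR adjusted p between 0.468 and 0.878). XBP1, the factor that IRE1 activates by splicing, had 55.3, 55.98, 51.8 and 53.8 CPM and ratios of 0.03 and 0.07. A count per gene holds spliced and unspliced XBP1 together, so splicing was not measured. ATF6 had ratios of 0.10 and -0.04, ERN1 0.11 and 0.27, and EIF2AK3, which encodes PERK, 0.11 and -0.03.

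Higher by 25% of the lower level or more in a single pair were 5 genes without imatinib, and 0 were lower by as much, where 9.63% and 12.8% of tested genes were. Under imatinib there were 8 higher and 0 lower, against 15.3% and 11.3%. HSPA5, CALR and CRELD2 were past this limit in both pairs and 0 members were below it in both, where 4.4% and 5.16% of tested genes were. Among the 12 chaperones, the 5 with an exact ERSE had median ratios of 0.43 and 0.34, and the 7 without had 0.24 and 0.22. With SDF2L1 and HYOU1, which carry ERSE-II, added, the 7 with either element had 0.36 and 0.34. The 5 with neither had 0.24 and 0.22. In both splits the ranges overlapped (0.12 to 0.47 against -0.03 to 0.37 without imatinib). Under imatinib the ranges were 0.01 to 0.53 with an exact ERSE and -0.18 to 0.50 without it. XBP1 and PDIA6, which also carry the exact ERSE, had 0.03 and 0.23 without imatinib, and 0.07 and 0.02 under it. Over all matched members, the 7 with an exact ERSE had medians of 0.36 without and 0.12 under imatinib. The 22 members without an exact ERSE had 0.11 and 0.09. These differences were not tested.

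The calls rest on few libraries. DESeq2 called HSPA5 and CALR only as risen and 0 as fallen (0.963% and 1.08% of tested genes). At an unadjusted p under 0.05 in DESeq2, 7 members were higher and 0 lower. That is 21.9% of members, against 8.96% of all tested genes in either direction. Fits with knockdown as the only term and 1 library left out have 1 library in a group. Their groups differ in imatinib as well as in knockdown. They cannot tell knockdown from imatinib, so nothing is read from them for the members.

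**Figure D2:**
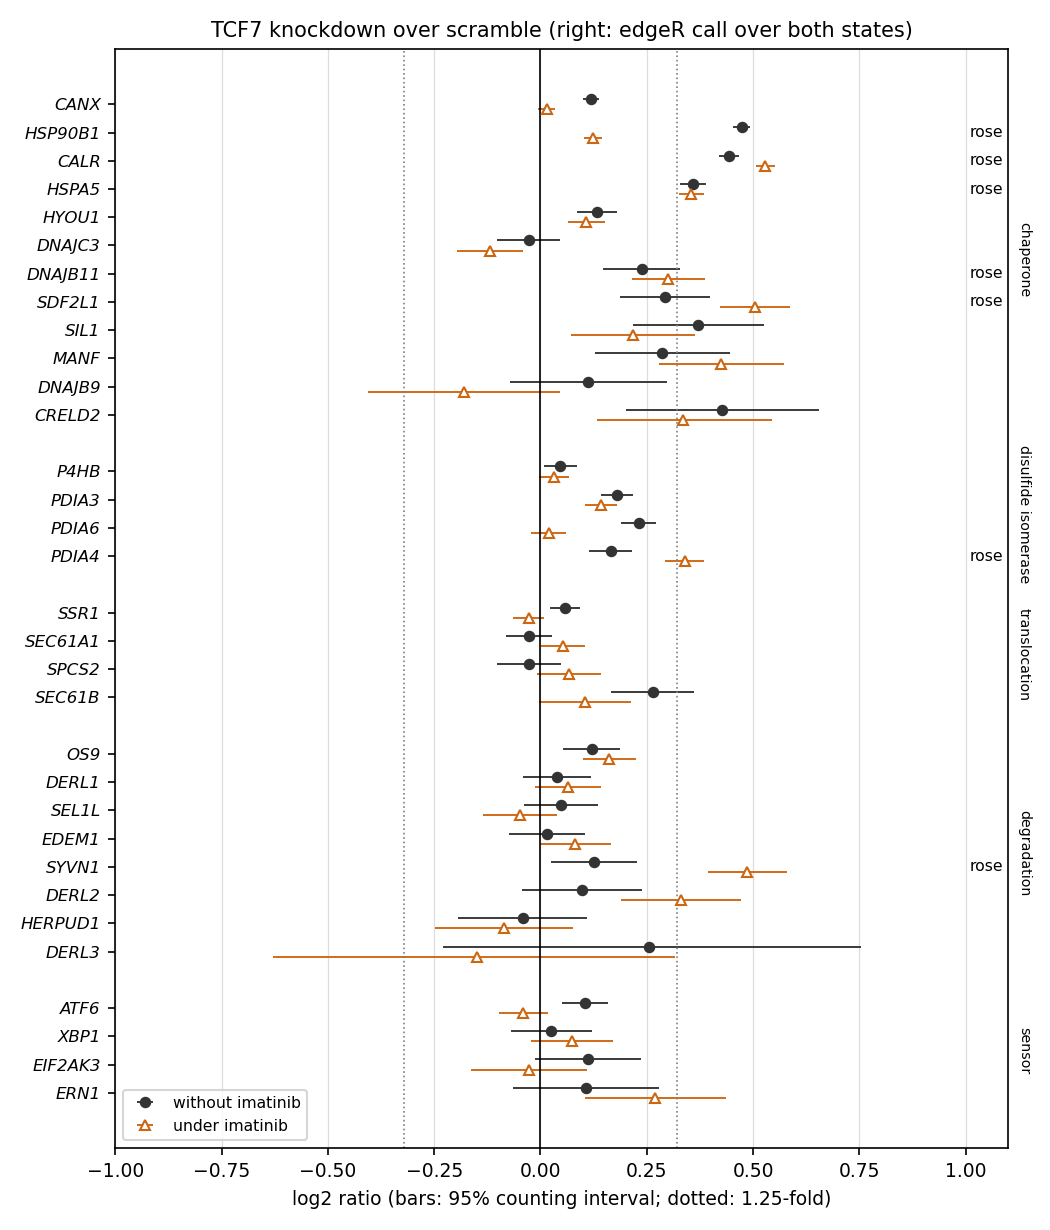
Log2 ratio of knockdown over scramble for each gene, without imatinib (filled circles) and under imatinib (open triangles), with 95% counting intervals; dotted lines mark a difference of 25% of the lower level, and genes that rose in the edgeR test are labelled at the right. HSPA5 has 0.36 and 0.35 and CALR 0.44 and 0.53, while HSP90B1 and SYVN1 have 1 large and 1 smaller ratio.

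Other genes of the pathway were examined as 119 genes in 8 lists, of which 113 were tested. For knockdown 6 rose and 3 fell, or 5.31% and 2.65%, close to the 3.8% and 3.34% of all tested genes. DESeq2 also called 3 of the 6 and 1 of the 3. With GC and length offsets 15 rose and 4 fell (13.3% and 3.54%, against 7.46% and 4.69% of all tested genes). The largest rises were in the cycle that trims and reads the glucose on N-glycans, in which calnexin and calreticulin work. GANAB, the catalytic subunit of glucosidase II, had 160.2, 237, 174 and 274 CPM without overlap of the groups. Its ratios were 0.58 (0.53 to 0.63) and 0.67 (0.63 to 0.72), and it rose (log2 fold change 0.62, SE 0.071, edgeR adjusted p = 7.55e-08), a larger fold than that of CALR. PRKCSH, the other subunit of the enzyme, rose with unequal ratios of 0.17 and 0.60 (edgeR adjusted p = 0.00162). MLEC, malectin, which binds glycans with 2 glucose residues, had 197, 258, 205 and 268 CPM and rose, its ratios being 0.40 and 0.41 (edgeR adjusted p = 0.000141). Of 10 genes of glycoprotein quality control 3 rose and 0 fell.

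Also risen were ERLEC1, a lectin of the degradation route (0.28 and 0.38), MAGT1 of the oligosaccharyltransferase (0.34 and 0.25) and SEC11A of the signal peptidase (0.25 and 0.31), with edgeR adjusted p-values between 0.0254 and 0.0395. DESeq2 called none of ERLEC1, MAGT1 and SEC11A (adjusted p 0.298, 0.357 and 0.371). Of 24 other degradation genes 1 rose and 1 fell. The latter was UBE2K, a ubiquitin-conjugating enzyme, with 292, 218, 269 and 198 CPM and ratios of -0.42 and -0.43 (edgeR adjusted p = 7.52e-05).

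In the PERK arm, which restrains translation and induces ATF4 and its targets, 0 of 8 tested genes rose and 2 fell (2 and 3 with GC and length offsets). TRIB3, a pseudokinase induced by ATF4 and CHOP, had 33.3, 22.2, 34.8 and 25.4 CPM and ratios of -0.58 (-0.72 to -0.44) and -0.43 (-0.56 to -0.30), and fell (edgeR adjusted p = 0.00195). ATF3, a transcription factor at a low level, had 3.44, 1.11, 2.73 and 1.07 CPM, ratios of -1.57 and -1.28, and fell (edgeR adjusted p = 0.00521). By DESeq2, TRIB3 (adjusted p = 0.0594) and ATF3 (adjusted p = 0.154) were not called. DDIT3, which encodes CHOP, had -0.56 (-0.75 to -0.37) without imatinib and 0.04 (-0.14 to 0.23) under it, and ATF4 had -0.23 and -0.10; neither was called. With the offsets ATF4 was called as fallen (log2 fold change -0.21, edgeR adjusted p = 0.00939). PPP1R15B (log2 fold change 0.25, edgeR adjusted p = 0.00198) and EIF2S1 (0.19, edgeR adjusted p = 0.0193) were called as risen with the offsets. The difference between this list and the chaperones was not tested.

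**Figure D3:**
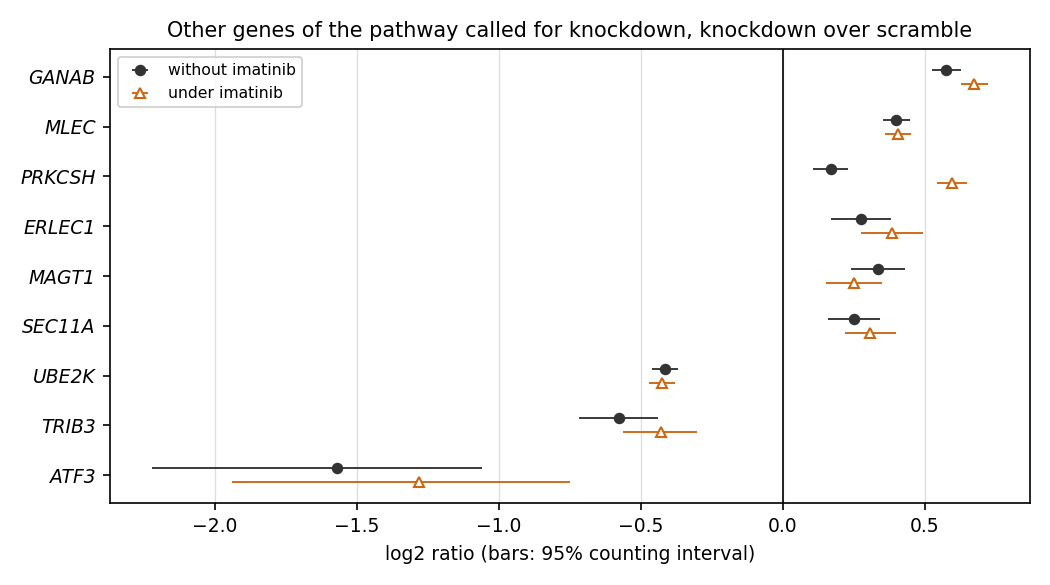
Log2 ratio of knockdown over scramble for the 9 other genes of the pathway that passed the edgeR test, without imatinib (filled circles) and under it (open triangles), with 95% counting intervals. GANAB is highest at 0.58 and 0.67 and ATF3 lowest at -1.57 and -1.28.

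The second comparison asks what imatinib changes in these resistant cells. Of the 32 genes 2 rose, SDF2L1 and PDIA4, and 5 fell, HSP90B1, DNAJB9, SEC61B, ATF6 and EIF2AK3, where 13.8% of tested genes rose and 7.08% fell. The members' median ratio was 0.02 in scramble and 0.04 in knockdown cells, against -0.01 and 0.01 over all tested genes. Of the 12 chaperones 1 rose and 2 fell, and of the 4 sensors 0 rose and 2 fell. Ratios under imatinib went with GC content: over 8815 genes averaging 10 CPM or more, Spearman's correlation across genes was 0.70 in scramble and 0.77 in knockdown cells, and over the 32 members 0.72 and 0.55. For knockdown ratios the correlations were -0.11 without and 0.39 under imatinib over these genes, and 0.40 and 0.38 over the members. These are descriptions across genes that share the same libraries. Each library's smooth dependence on GC content and on length was therefore also removed. For imatinib those values are given for the members called and the others named below. For knockdown, removing it gave a members' median ratio of 0.16 without and 0.12 under imatinib. The knockdown ratios became 0.415 and 0.362 for SDF2L1, 0.453 and 0.453 for CALR, and 0.175 and 0.416 for SYVN1.

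SDF2L1 had the largest ratios, 0.60 (0.50 to 0.70) in scramble and 0.81 (0.72 to 0.90) in knockdown cells, and both imatinib libraries lay above both others. It rose (log2 fold change 0.71, SE 0.088, edgeR adjusted p = 8.67e-07). Its transcript also had the highest GC content of the 32, 65.5%, and with the trend removed its ratios were 0.19 and 0.13 and it was not called (edgeR adjusted p = 0.23 with GC and length offsets). PDIA4 had ratios of 0.16 and 0.33 and rose (edgeR adjusted p = 0.0142), but with the trend removed it had 0.04 and 0.14 and was not called (edgeR adjusted p = 0.431).

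DNAJB9 had 14.6, 15.7, 10.7 and 9.32 CPM, with both imatinib libraries below both others. Its ratios were -0.46 (-0.66 to -0.26) in scramble and -0.75 (-0.97 to -0.54) in knockdown cells, and it fell (log2 fold change -0.60, SE 0.151, edgeR adjusted p = 0.00419). It was still called with the trend removed (ratios -0.35 and -0.59, edgeR adjusted p = 0.0339). SEC61B had -0.25 (-0.36 to -0.15) and -0.41 (-0.52 to -0.31), fell (log2 fold change -0.33, SE 0.0926, edgeR adjusted p = 0.00943), and was called with the trend removed as well (-0.23 and -0.40, edgeR adjusted p = 0.00806). With GC and length offsets these were the 2 members that fell, and 0 rose, where 1.62% of tested genes rose and 2.44% fell.

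Of the 4 sensor genes 2 fell under imatinib as counted. EIF2AK3 had 32.01, 34.4, 27.2 and 26.3 CPM, ratios of -0.25 (-0.38 to -0.12) and -0.39 (-0.52 to -0.26), and fell (edgeR adjusted p = 0.0285). ATF6 had 164, 175, 152 and 145 CPM, ratios of -0.13 and -0.27, and fell (edgeR adjusted p = 0.0461). In both genes the imatinib libraries lay below the others. With the trend removed EIF2AK3 had -0.19 and -0.31 and ATF6 -0.03 and -0.12, and neither was called (edgeR adjusted p = 0.111 and 0.587). XBP1 (-0.11 and -0.06) and ERN1 (-0.05 and 0.12) were not called, and with the trend removed had -0.01 and 0.08, and -0.11 and 0.01.

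HSP90B1 was called as fallen (log2 fold change -0.25, SE 0.0759, edgeR adjusted p = 0.0174), but its ratio was -0.08 (-0.10 to -0.06) in scramble and -0.42 (-0.44 to -0.41) in knockdown cells, and the groups overlapped. With the trend removed the ratios were 0.02 and -0.28, and it was not called. HSPA5 had ratios of 0.10 and 0.09 (0.12 and 0.12 with the trend removed) and was not called. CALR had 0.05 and 0.13, which turned to -0.08 and -0.08 with the trend removed, and was not called either way. HERPUD1, a textbook target of ER stress, had 22.99, 22.2, 19.9 and 18.5 CPM and ratios of -0.22 and -0.27, with the imatinib libraries below the others. With the trend removed it had -0.23 and -0.29, and it was not called (edgeR adjusted p = 0.146, and 0.186 with the offsets).

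Separation of the imatinib libraries from the others was seen in 6 members upward and 9 downward, where 27.9% and 26.4% of tested genes were separated. Past the limit of 25% were 1 gene higher and 1 lower in scramble cells (14.6% and 7.8% of tested genes) and 3 higher and 4 lower in knockdown cells (25.1% and 12.9%). With the trend removed these counts were 0 and 1 (6.94% and 8.06%) in scramble cells and 0 and 4 (11.5% and 10.5%) in knockdown cells. The 4 lower in knockdown cells were then DNAJB9, SEC61B, SIL1 and DERL3, whose values are uncertain. As counted they were HSP90B1, DNAJB9, SEC61B and EIF2AK3. SDF2L1 alone was higher in both pairs and DNAJB9 alone lower in both, where 9.94% and 2.57% of tested genes were. DESeq2 called SDF2L1 alone as higher and 0 as lower (8.08% and 2.56% of genes it tested). At an unadjusted p under 0.05 in DESeq2, 3 members were higher and 4 lower. That is 21.9% of members, close to the 20.1% of all tested genes in either direction. Fits with imatinib alone as a term and 1 library left out have 1 library in a group. Their groups differ in knockdown as well as in imatinib, so nothing is read from them for the members.

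**Figure D4:**
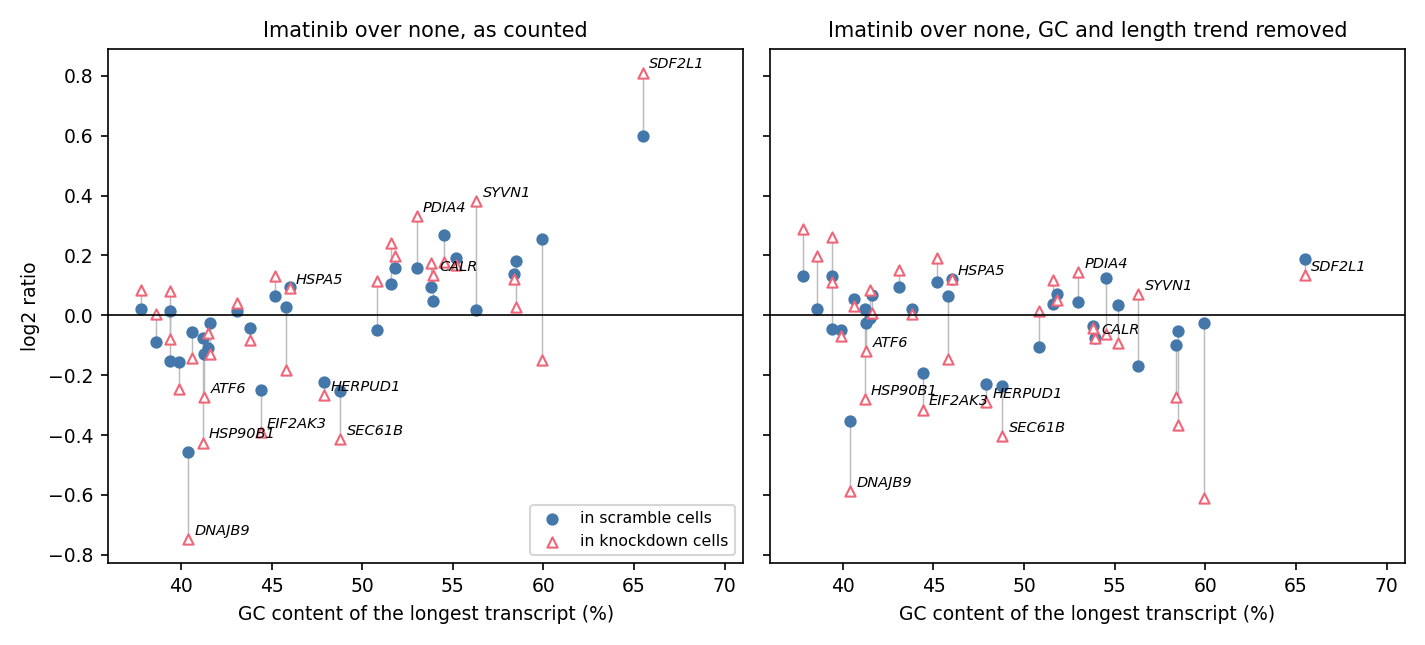
Log2 ratio of imatinib over none for each of the 32 genes against the GC content of its longest transcript, as counted (left) and with the GC and length trend removed (right); circles are scramble cells, triangles knockdown cells, and grey lines join the values of a gene. SDF2L1, at 65.5% GC, moves from 0.60 and 0.81 to 0.19 and 0.13, and DNAJB9 from -0.46 and -0.75 to -0.35 and -0.59.

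Of the 113 other genes of the pathway 11 rose and 8 fell with imatinib, or 9.73% and 7.08%, against 13.8% and 7.08% of all tested genes. DESeq2 also called 6 of the 11 and 4 of the 8. With GC and length offsets 1 rose and 2 fell (0.885% and 1.77%, against 1.62% and 2.44%). Among degradation genes 4 rose and 1 fell. TMUB1, a ubiquitin-like membrane protein, had the largest fold (ratios 0.52 and 0.88, edgeR adjusted p = 3.61e-06), followed by the conjugating enzyme UBE2J2 (0.39 and 0.51), AUP1 (0.26 and 0.31) and UBXN4, which fell (-0.20 and -0.32). In glycoprotein quality control the glucosidase MOGS (0.34 and 0.68) and PRKCSH (0.26 and 0.69) rose, and UGGT2, a folding sensor of glycoproteins, fell (-0.32 and -0.18). OSTC (-0.31 and -0.38) and STT3B (-0.18 and -0.24) of the oligosaccharyltransferase fell. In translocation SSR4 rose (0.44 and 0.33), and SRP14 (-0.26 and -0.26) and SRP72 (-0.16 and -0.23) of the signal recognition particle fell. ATF6B, a relative of ATF6, rose (0.21 and 0.37), and in the PERK arm so did PPP1R15A, a phosphatase subunit that reverses the translation block (0.19 and 0.58, edgeR adjusted p = 0.00256). With the offsets, none of these genes was called.

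In oxidative folding, the sulfhydryl oxidase QSOX1 (0.25 and 0.95) and the prolyl isomerase FKBP2 (0.19 and 0.54) rose, and the oxidase ERO1A fell (-0.19 and -0.29); with the offsets they were not called. TXNDC12, a thioredoxin-like ER protein, fell with ratios of -0.26 and -0.50 (edgeR adjusted p = 0.00118), and was called with the offsets as well (edgeR adjusted p = 0.00013). Not called as counted but called with the offsets were SSR2 of the translocon-associated complex, as risen (edgeR adjusted p = 0.0257), and DNAJC1, as fallen (edgeR adjusted p = 0.0205).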

How the data were processed

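RNA depleted of ribosomal RNA was made into strand-keeping libraries, per the labels' protocols. The submitters' processing notes list GRCh38, FastQC, HISAT2 and HTSeq 0.6.1. Which annotation was counted, and with which strand setting, is not given in the sources used here. From these the authors deposited 1 whole-number count per gene and library, used as deposited. The deposited columns headed FPKM were treated as a score, since 6 genes (0 members) have negative values; they served only to compare levels between genes. Groups come from the treatment labels, with 1 library per group.

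The filter kept genes with a CPM of 1 or above in 2 or more libraries. Counts were scaled by TMM and tested with edgeR 4.0.16 (R 4.3.3), with Benjamini-Hochberg adjustment over 13296 genes. The prior degrees of freedom were 33.7. Pair ratios used a prior count of 2 and exact binomial intervals. Alternatives were other scalings and filters, a prior count of 0.5, a fold limit of 1.5, DESeq2 1.42.0, 1-factor fits, libraries left out, and removal of each library's smooth trend on the GC content and length of a gene's longest transcript in GENCODE 29 (mgcv 1.9.3, 13255 genes with 32 of 32 members), as an offset in the test. Intervals cover counting error only. All 32 members are named, with up to 4 called genes per other list and factor, largest fold first. The members and lists were chosen with earlier results of these data known.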

Additional observations from a re-analysis of the deposited data

How the results depend on the processing

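For knockdown, 7 members were called higher with DESeq2 size factors, total counts or a filter at 5 CPM, and 6 without a filter. Of all genes, 547 and 527 of 13296, 480 of 10194 and 483 of 28482 were called higher in these settings. GC and length offsets gave 9 members, and the DESeq2 test 2. The fit without the imatinib term called 0 members and 0 of all 13296 genes. At an unadjusted p under 0.05 in edgeR, that fit had 2 members (6.25%, against 6.15% of all genes). With 1 library left out, in that 1-factor form, the fold change of SDF2L1 lay between -0.033 (without the knockdown library with imatinib) and 0.761. In that form the groups differ in imatinib as well as in knockdown. For imatinib, 2 members were called higher and 5 lower. The filter at 5 CPM gave 4 higher and 5 lower, where 2034 and 996 of 10194 genes were called. The DESeq2 test gave 1 higher and 0 lower. The fit without the knockdown term gave 0 and 0, and 0 of all genes were called. At an unadjusted p under 0.05 in edgeR, that fit had 5 members (15.6%, against 19.9% of all genes). GC and length offsets gave 0 higher and 2 lower. Of members not called for imatinib with or without the offsets, 15 changed the sign of their imatinib fold change with the offsets. The cause was not tested.

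Past the fold in single pairs, a limit of 1.5-fold left 0 members higher for knockdown without imatinib and 0 under it, 0 lower for imatinib in scramble cells, and 1 higher and 1 lower in knockdown cells. Total counts gave 5 in place of 8 higher for knockdown under imatinib. With the GC and length trend removed, 0 were higher for imatinib in scramble cells and 0 in knockdown cells. No paired analysis was possible because each group has 1 library and the labels carry no replicate numbers; the 2-term edgeR fit compares knockdown with scramble cells within each imatinib state. Depth does not limit the abundant chaperones, but DERL3, CRELD2 and DNAJB9 have wide counting intervals.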
